A study of Homo sapiens with 6 samples.

Results

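The 50 genes described here act in the G2 phase of the cell cycle and in mitosis, and they were chosen by name as a list of the kinases, cyclins, checkpoint proteins, kinetochore proteins, motors and cytokinesis factors of cell division. All 50 are among the 43424 gene symbols of the count tables, and all 50 passed the filter on low counts, with at least 36 counts in every library. The libraries come from HL-60, an established human acute myeloid leukaemia cell line described as wild type, kept for 6 months in DMSO, the solvent control, or in Corydalis incisa (Thunb.) Pers., a plant abbreviated CIP, whose concentration was raised from 2 to 20 µg/ml. Each label has 3 libraries, and the series describes the CIP cells as resistant to the plant. QuantSeq was used, a method that counts reads near the polyadenylated 3′ end of each messenger RNA.

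A dividing cell enters mitosis when cyclin B binds and activates the kinase CDK1, which phosphatases of the CDC25 family switch on and the kinase WEE1 holds back. Polo-like and Aurora kinases then build the spindle, the checkpoint proteins delay chromosome separation until every kinetochore is attached, and the anaphase-promoting complex degrades cyclin B and securin to let the cell divide. Most of these genes are transcribed late in the cell cycle, when the MuvB complex with B-MYB and FOXM1 acts on their promoters through a sequence called the cell cycle genes homology region (CHR), often with NF-Y bound to CCAAT boxes nearby. In quiescent cells the DREAM complex represses the same promoters through the same element. Leukaemia cells that mature as granulocytes or monocytes are known to leave the cycle and lose these transcripts.

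The promoters show what the genes share apart from their role. RefSeq promoter sequences (GRCh38.p14, 250 bases before to 50 bases after the gene start) were found for 43 of the 50 members. The CHR was searched as TTTGAA on both strands and as TTCGAA, which reads the same on both strands. The CCAAT box was searched as CCAAT on both strands. Other spellings of either element were not searched, so a match or its absence concerns these letters alone. A CHR match lay in 33 of the 43 promoters (76.7%), where 16.6% of 27305 promoters of the same length and 11.5% of those of the tested genes had one. A CCAAT match lay in 33 of the 43 (76.7%), against 35.7% of all promoters, and 28 of the 43 (65.1%) held both, against 6.58%. Of the CHR matches the median first base was 26 bases before the gene start. A match in a window of 60 bases before to 50 bases after the start, limits chosen after the positions were seen, was found for 29 of 43 members and 5.46% of all promoters.

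These 6 stretches of 130 bases before the gene start are shown because they hold or lack the letters searched. The genes fell (CCNB2, PRC1, KIF20A), did not pass the test (BUB1B, KIF11) or rose (GTSE1) in the comparison that follows. CHR and CCAAT matches are in capitals.
CCNB2: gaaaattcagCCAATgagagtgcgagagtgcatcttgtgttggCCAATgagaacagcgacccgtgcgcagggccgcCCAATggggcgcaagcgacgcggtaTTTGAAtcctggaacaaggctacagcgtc
PRC1: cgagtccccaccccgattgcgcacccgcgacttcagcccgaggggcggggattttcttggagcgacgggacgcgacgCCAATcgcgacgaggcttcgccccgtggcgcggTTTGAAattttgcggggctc
KIF20A: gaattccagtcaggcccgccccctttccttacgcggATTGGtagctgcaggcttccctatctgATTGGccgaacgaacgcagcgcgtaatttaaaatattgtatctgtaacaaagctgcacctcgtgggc
BUB1B: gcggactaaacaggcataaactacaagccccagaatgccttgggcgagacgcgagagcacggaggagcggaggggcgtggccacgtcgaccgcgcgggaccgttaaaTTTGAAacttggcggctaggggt
KIF11: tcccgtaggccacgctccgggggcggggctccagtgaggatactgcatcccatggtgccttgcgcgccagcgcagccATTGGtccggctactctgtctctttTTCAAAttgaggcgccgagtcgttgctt
GTSE1: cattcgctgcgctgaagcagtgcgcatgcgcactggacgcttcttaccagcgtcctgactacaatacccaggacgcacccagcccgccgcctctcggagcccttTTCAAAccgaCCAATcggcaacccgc
They lie at chr15:59105016-59105145, plus strand (CCNB2), chr15:90994536-90994665, minus strand (PRC1), chr5:138178982-138179111, plus strand (KIF20A), chr15:40160939-40161068, plus strand (BUB1B), chr10:92593000-92593129, plus strand (KIF11) and chr22:46296740-46296869, plus strand (GTSE1). CCNB2 has 3 CCAAT matches in front of 1 CHR match that starts 29 bases before the gene start, and PRC1 has 1 of each, with the CHR 20 bases before the start. KIF20A, with the lowest log2 fold change of the members, has 2 CCAAT matches in this stretch. It has no TTTGAA or TTCGAA there or in the rest of its window. The KIF20A stretch does hold TTTAAA, a spelling that was not searched, so a CHR of another spelling is not excluded. BUB1B, which did not pass, and GTSE1, which rose, have a CHR 23 and 26 bases before the start. A match of letters is a description and does not show that a factor binds there.

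**Figure D1:**
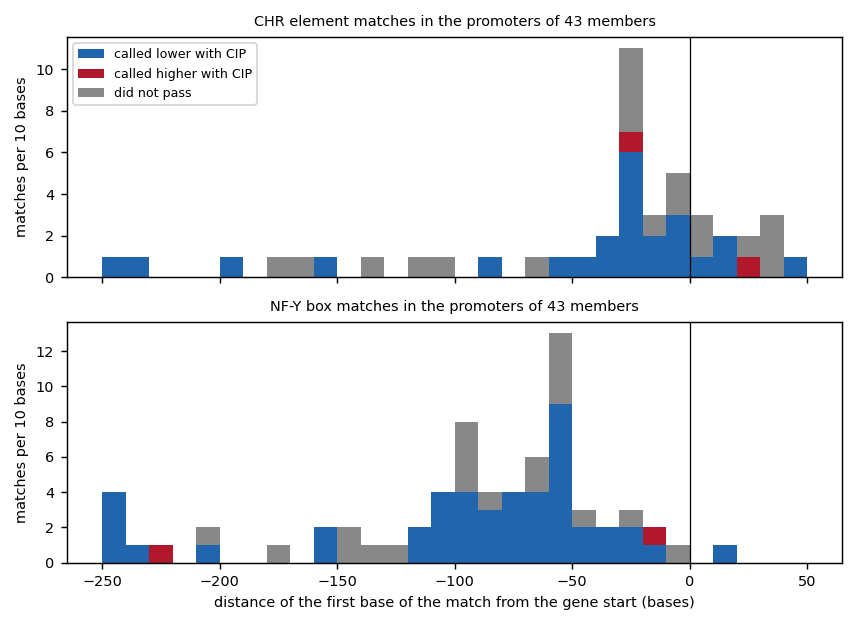
Distance from the gene start, in bases, of the first base of each CHR match (upper panel) and each CCAAT match, the binding box of NF-Y (lower panel), as the number of matches per 10 bases in 43 promoters. Colours give the call of the gene, and a CHR match from 60 bases before to 50 after the start was found for 17 of 27 members that fell, 10 of 14 that did not pass and both that rose.

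Total counts were between 8143657 and 10868396 per library. The groups differed in most genes tested, and groups are named by their labels. CPM are counts per 1000000 of a library total scaled by the trimmed mean of M-values (TMM), ± after a mean CPM is the SD of 3 libraries, and ± after a log2 fold change is its SE. MPO, a granule enzyme that is usually abundant in HL-60 cells, stood at 9006, 8481 and 8565 CPM with CIP and 1.49, 0.863 and 1.02 CPM with DMSO, which goes against the usual picture of the line for the DMSO-labelled libraries. The 6 granulocyte precursor markers summed to 9484 to 10050.0 CPM with CIP, most of it MPO, and to 1539 to 1681 CPM with DMSO, and they split in direction. MPO, CEBPE and PRTN3 were higher with CIP, while CTSG (95.4 ± 4.78 against 655 ± 28.1 CPM), ELANE (333 ± 32.9 against 592 ± 48.7 CPM) and AZU1 (25.2 ± 4.86 against 44.1 ± 5.85 CPM) were lower. Markers of other cell types differed too: 6 monocyte and macrophage markers (FCGR3A at 0 counts throughout) summed to 1.16 to 2.62 CPM with CIP and 34.4 to 35.5 CPM with DMSO, and 5 lymphocyte markers (MS4A1 at 0) to 3.53 to 4.05 and 86.0 to 107 CPM. The 5 epithelial and fibroblast markers summed to 14.2 to 30.8 CPM with CIP and 28.3 to 66.2 CPM with DMSO. These sums overlapped, and of the 4 markers that were tested none passed. The part of these differences in the results was not tested.

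Of the 50 members 30 fell (60.0%), 3 rose (6.0%) and 17 did not pass the test, which was edgeR's quasi-likelihood test of CIP against DMSO over 12844 genes with a Benjamini-Hochberg adjusted p under 0.05. Of all genes tested 73.1% were called, 38.2% as lower and 34.9% as higher. The members' median log2 fold change was -0.38 (quartiles -0.92 and -0.05), against -0.03 over all genes tested (quartiles -0.96 and 0.64). At least a 2-fold fall was called for 11 of the 50 members, a share no higher than the 24.0% of all genes tested. At least a 2-fold rise was called for 1 of the 50, against 15.0% of all genes tested. All libraries of one group lay beyond all of the other for 36 members, 30 below and 6 above with CIP, where 75.5% of all genes tested were separate, 39.3% below and 36.1% above. The 3 members that were separate without passing the test were BUB3, HMMR and ECT2, all with the higher values in the CIP-labelled libraries. Together the 50 genes took 0.479%, 0.472% and 0.494% of all counts with CIP and 0.800%, 0.786% and 0.796% with DMSO. Without TOP2A, the member with most counts, the shares were 0.344%, 0.346% and 0.357% against 0.602%, 0.595% and 0.597%. All these shares are of library totals without TMM scaling. They include a shift of the whole table, whose median log2 fold change was -0.26 with library totals alone and -0.03 with TMM. Of the members with a promoter sequence, 19 of 27 that fell, 12 of 14 that did not pass and both that rose had a CHR match. In such bulk libraries, fewer cells in G2 or mitosis and less of these messenger RNAs per cell cannot be told apart.

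The counts of calls depend on how libraries are scaled. With library totals alone the median of all genes moved from -0.03 to -0.26 and that of the members from -0.38 to -0.62, so that 38 members were called lower and 2 higher. Of all called genes 52.3% were lower with TMM and 63.2% with library totals alone. A scaling shifts all genes alike, so the gap of -0.35 between both medians cannot move with it. That gap was -0.17 with no filter on low counts, where the median of all genes included 22384 genes, -0.30 without CIP replicate 1 and -0.29 without CIP replicate 2.

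**Figure D2:**
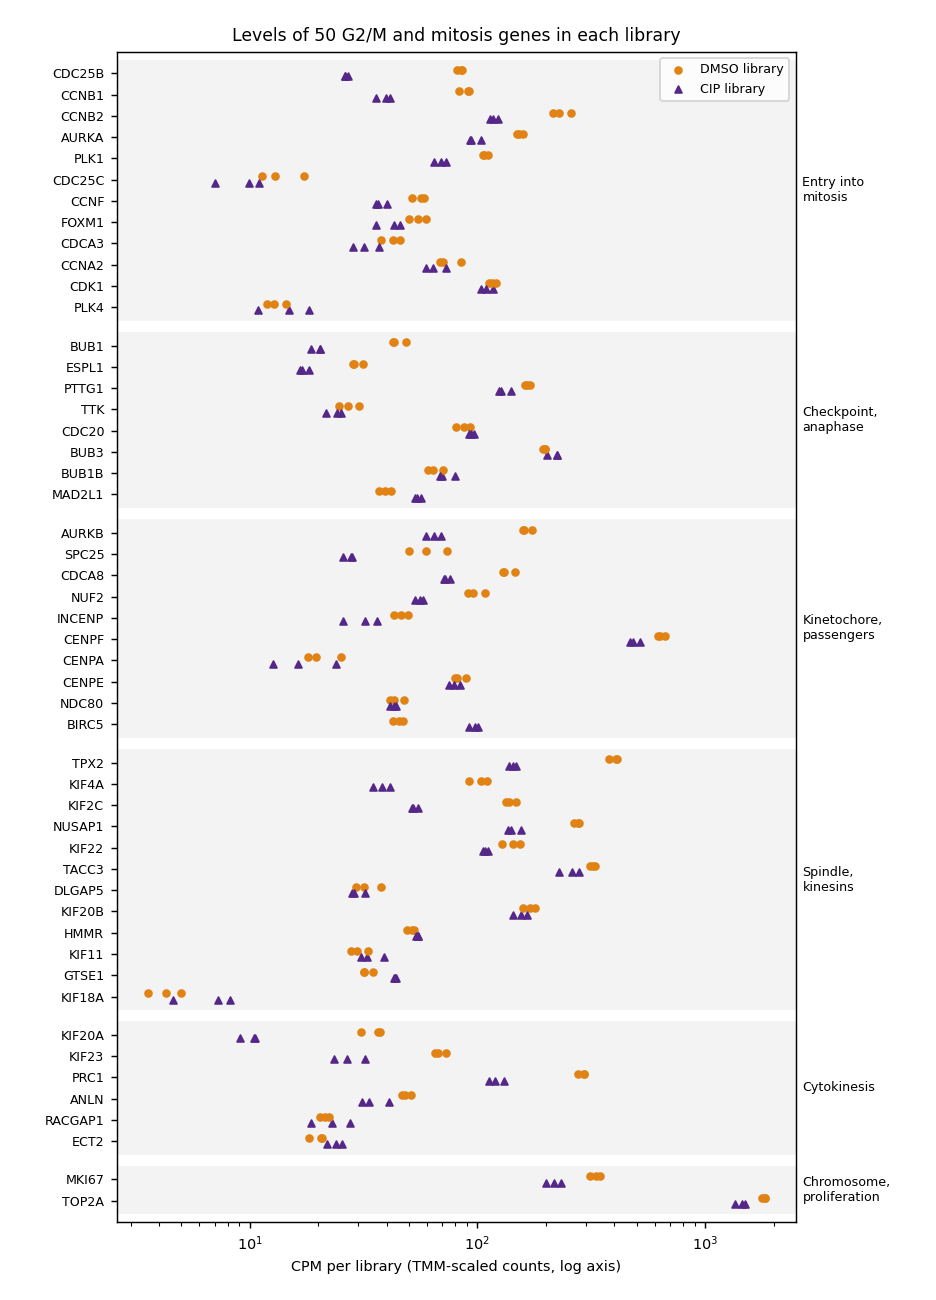
CPM of each of the 50 genes in each library on a log axis, with circles for DMSO-labelled and triangles for CIP-labelled libraries, grouped by role. TPX2, AURKB, KIF2C and KIF20A show wide gaps between the groups, while CDK1, CDC20 and NDC80 overlap.

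The 12 genes of entry into mitosis had a median log2 fold change of -0.56, and 9 fell, 0 rose and 3 did not pass. CDK1 (chromosome 10, 60778331 to 60794852, RefSeq gene coordinates of GRCh38.p14 throughout), the kinase that drives mitosis, stood at 109, 117 and 103 CPM with CIP and 112, 120.3 and 116 CPM with DMSO. The groups overlapped, and its log2 fold change was -0.08 ± 0.08 (adjusted p = 0.33, edgeR). Its cyclin B partners were lower in every CIP-labelled library. CCNB1 (chromosome 5, 69167150 to 69178245) had 35.7, 41.2 and 39.5 CPM with CIP and 91.7, 82.9 and 90.6 CPM with DMSO, with a log2 fold change of -1.19 ± 0.09 (adjusted p = 1.8e-13, edgeR). CCNB2 (chromosome 15, 59105146 to 59125045) had 114, 117 and 123 CPM with CIP and 229, 258 and 214 CPM with DMSO, with a log2 fold change of -0.99 ± 0.07 (adjusted p = 4.4e-14, edgeR). For both B cyclins the highest CIP-labelled library lay well under the lowest DMSO-labelled one. CCNA2, the cyclin A of S and G2 phase, had 59.6, 72.5 and 63.8 CPM with CIP and 84.7, 70.3 and 68.5 CPM with DMSO, and these overlapped. Its log2 fold change of -0.19 ± 0.10 (adjusted p = 0.072, edgeR) did not pass, although it did with RLE scaling (adjusted p = 0.046), with upper-quartile scaling (0.026), with library totals alone (1.9e-04) and without CIP replicate 2 (0.019), DMSO replicate 2 (0.045) or DMSO replicate 3 (0.033). CCNA2 shares 254 exon bases with EXOSC9 on the opposite strand, which had 264 to 552 counts per library.

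The CDC25 phosphatase genes, which activate CDK1, differed in direction. CDC25B (chromosome 20, 3786951 to 3806115), which acts at the start of mitosis, had 26.2, 26.3 and 27.1 CPM with CIP and 85.1, 85.4 and 81.5 CPM with DMSO, and the log2 fold change was -1.66 ± 0.10 (adjusted p = 6.4e-17, edgeR). This was the second lowest fold change of all members, and the libraries within each group were close together. CDC25C was low in all libraries, at 9.33 ± 2.04 against 13.8 ± 3.12 CPM, with an adjusted p of 0.018 that was 0.13 without CIP replicate 1 and 0.16 without DMSO replicate 1, and it shares 293 exon bases with FAM53C on the opposite strand. CDC25A, the family member outside the 50 genes, rose with 88.7 ± 1.16 against 59.8 ± 9.37 CPM and a log2 fold change of 0.57 ± 0.09 (adjusted p = 2.1e-06, edgeR). Among kinases, PLK1, which promotes CDK1 activation and spindle assembly, had 64.8, 69.1 and 72.5 CPM with CIP and 107, 105 and 111 CPM with DMSO. AURKA, the Aurora kinase of centrosomes and spindle poles, had 92.6, 93.5 and 103 CPM with CIP and 149, 159 and 152 CPM with DMSO. Both kinase genes fell, with log2 fold changes of -0.65 ± 0.08 and -0.67 ± 0.07 (adjusted p = 9.5e-09 and 6.8e-10, edgeR). PLK4, the kinase of centriole duplication, did not pass, at 14.6 ± 3.67 against 13.0 ± 1.26 CPM.

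FOXM1, the transcription factor of many genes in this list, had 45.9, 35.9 and 43.0 CPM with CIP and 59.2, 54.7 and 49.9 CPM with DMSO, with a log2 fold change of -0.39 ± 0.11 (adjusted p = 0.0014, edgeR). Its exons share 781 bases with ITFG2 on the opposite strand, which had 291, 257 and 269 counts with CIP and 64, 101 and 99 with DMSO, and the part of such reads in the FOXM1 counts was not tested. CCNF, an F-box protein that marks targets for degradation in G2, fell with 37.6 ± 2.18 against 55.3 ± 3.50 CPM. CDCA3, a trigger of mitotic entry, had 32.4 ± 4.32 against 41.9 ± 3.98 CPM and a log2 fold change of -0.37 ± 0.12 (adjusted p = 0.006, edgeR), and its adjusted p was 0.061 without CIP replicate 1.

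**Figure D3:**
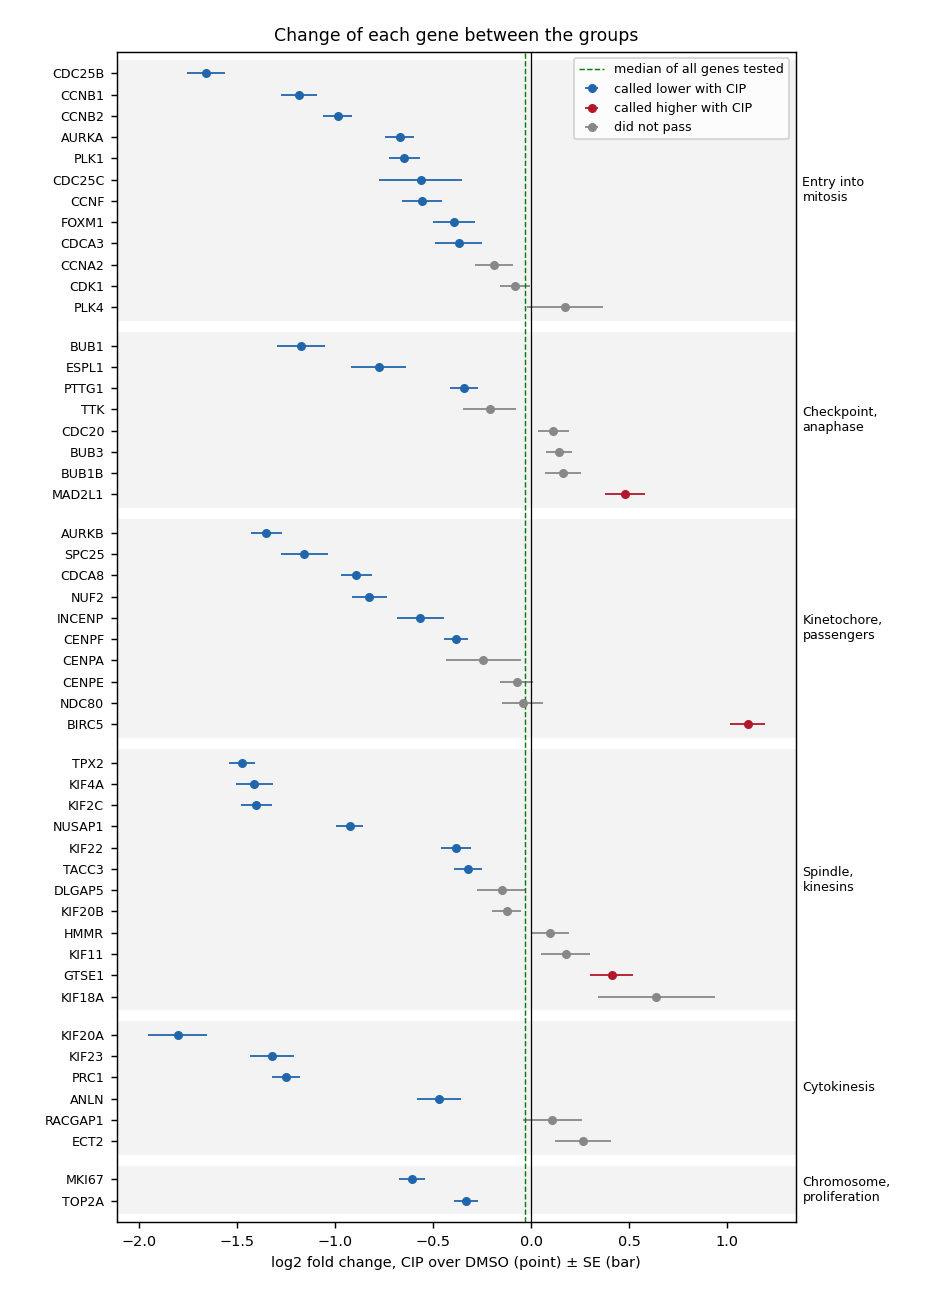
Log2 fold change of each gene, CIP over DMSO (point), with its SE (bar) from edgeR, grouped by role and coloured by call; the dashed line is the median of all genes tested, -0.03. The points run from -1.80 for KIF20A to 1.10 for BIRC5, and every role except chromosome structure and proliferation has genes on both sides of the dashed line.

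The 8 checkpoint and anaphase genes had a median of -0.05, with 3 that fell, 1 that rose and 4 that did not pass. These were 37.5% lower and 12.5% higher, against 38.2% and 34.9% of all genes tested. The mitotic checkpoint complex holds CDC20 away from the anaphase-promoting complex, and none of its genes (MAD2L1, BUB1B, BUB3, CDC20) was called lower. MAD2L1 (MAD2, chromosome 4, 120055623 to 120066848) rose, from 41.9, 37.0 and 39.1 CPM with DMSO to 54.5, 56.4 and 53.4 CPM with CIP. Its log2 fold change was 0.48 ± 0.10 (adjusted p = 8.5e-05, edgeR). BUB1B (BUBR1) had 70.1, 79.5 and 68.5 CPM with CIP and 64.0, 60.7 and 70.5 CPM with DMSO, with overlap and an adjusted p of 0.11. BUB3, which carries BUB1 and BUBR1 to kinetochores, had 224, 202 and 225 CPM with CIP and 194, 198 and 197 CPM with DMSO. These BUB3 values did not overlap, and the adjusted p was 0.059, which was 0.012 without CIP replicate 2. CDC20, the activator that the checkpoint blocks, had 96.6, 93.3 and 91.8 CPM with CIP and 80.4, 92.6 and 87.4 CPM with DMSO. Its log2 fold change was 0.11 ± 0.08 (adjusted p = 0.21, edgeR). With library totals alone BUB1B, BUB3 and CDC20 had log2 fold changes of -0.07, -0.09 and -0.12 and did not pass, while MAD2L1 stayed called as higher.

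BUB1, the checkpoint kinase that marks centromeres, differed from its relative BUB1B. It fell to 20.4, 20.3 and 18.6 CPM from 42.9, 42.5 and 48.5 CPM, with a log2 fold change of -1.18 ± 0.12 (adjusted p = 1.9e-10, edgeR). PTTG1 (securin), the inhibitor of separase, had 127, 125 and 141 CPM with CIP and 162, 166 and 169.6 CPM with DMSO. The securin groups did not overlap, and the log2 fold change was -0.35 ± 0.07 (adjusted p = 5.4e-05, edgeR). ESPL1 (separase), the protease that cuts cohesin at anaphase, fell with 17.2 ± 0.833 against 29.5 ± 1.76 CPM. TTK (MPS1), the kinase that starts the checkpoint, had 23.6 ± 1.90 against 27.4 ± 2.78 CPM and did not pass (adjusted p = 0.16). The PTTG2 and PTTG3P copies of securin had 1 count each over all libraries.

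Among centromere, kinetochore and passenger genes, 10 in number, 6 fell, 1 rose and 3 missed the threshold, with a median of -0.48. The chromosomal passenger complex, which corrects wrong attachments and guides cytokinesis, showed the widest split. AURKB (chromosome 17, 8204731 to 8210575), its kinase, had 69.1, 59.3 and 64.4 CPM with CIP and 159, 173 and 159 CPM with DMSO, with a log2 fold change of -1.35 ± 0.08 (adjusted p = 5.7e-17, edgeR). BIRC5 (survivin, chromosome 17, 78214253 to 78225635), which anchors the complex to centromeres and also counts as an inhibitor of apoptosis, had 97.9, 100.5 and 91.6 CPM with CIP and 42.6, 45.5 and 47.0 CPM with DMSO, with a log2 fold change of 1.10 ± 0.09 (adjusted p = 2.6e-13, edgeR). The groups overlapped for neither gene, and the directions were opposite. CDCA8 (borealin) fell with 72.9 ± 2.18 against 136 ± 8.94 CPM, and INCENP, the scaffold, fell with 31.3 ± 5.25 against 46.3 ± 3.27 CPM.

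The NDC80 complex, which grips microtubules at the kinetochore, was uneven too. NDC80 itself had 42.7 ± 1.15 against 43.9 ± 3.12 CPM and a log2 fold change of -0.04 ± 0.10 (adjusted p = 0.72, edgeR). NUF2, its direct partner, fell with 55.6 ± 2.18 against 98.5 ± 8.81 CPM. SPC25 fell with 27.3 ± 1.37 against 61.0 ± 11.9 CPM, and its log2 fold change was -1.16 ± 0.12 (adjusted p = 2e-10, edgeR). SPC24, a subunit outside the 50 genes, fell with 34.4 ± 1.49 against 48.8 ± 1.56 CPM. Among centromere genes, CENPF, a large kinetochore protein of G2 and mitosis, fell with 489 ± 26.7 against 638 ± 24.5 CPM. The histone variant gene CENPA and the kinesin gene CENPE did not pass, at 17.6 ± 5.79 against 20.9 ± 3.77 CPM and 79.1 ± 4.37 against 83.3 ± 4.96 CPM. CENPA passed as lower without CIP replicate 2 (log2 fold change -0.52, adjusted p = 0.010), the library with its highest CIP value.

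The median of 12 spindle and motor genes was -0.24, and 6 of them fell, 1 rose and 5 missed the threshold. TPX2 (chromosome 20, 31739290 to 31801800), which activates Aurora A on spindle microtubules, had 143, 138 and 147 CPM with CIP and 377, 411 and 405 CPM with DMSO, with a log2 fold change of -1.48 ± 0.07 (adjusted p = 4.3e-20, edgeR). KIF2C (MCAK, chromosome 1, 44739837 to 44767767), a kinesin that takes microtubules apart at centromeres, had 51.6, 54.7 and 52.3 CPM with CIP and 148, 134 and 138 CPM with DMSO. KIF4A (chromosome X, 70290104 to 70420886), a chromosome-bound kinesin that limits the length of the midzone, had 34.8, 41.5 and 38.2 CPM with CIP and 91.4, 104 and 110.2 CPM with DMSO. All 3 genes had every CIP-labelled library under every DMSO-labelled one, and the kinesins' log2 fold changes were -1.40 ± 0.08 and -1.41 ± 0.09 (adjusted p = 3.7e-17 and 2.7e-15, edgeR). The near-identical KIF4B had 4 counts over the 6 libraries. NUSAP1, which bundles microtubules around chromosomes, fell with 144 ± 10.1 against 273 ± 7.39 CPM. KIF22, a kinesin that pushes chromosome arms, and TACC3, which crosslinks kinetochore fibres, fell less, with log2 fold changes of -0.38 ± 0.08 and -0.32 ± 0.07.

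Other motor genes did not pass. KIF11 (Eg5), the motor that pushes the spindle poles apart, had 34.0 ± 4.20 against 30.1 ± 2.66 CPM, and its log2 fold change was 0.17 ± 0.12 (adjusted p = 0.21, edgeR). KIF20B, a kinesin of late mitosis, had 143, 156 and 166 CPM with CIP and 179, 169 and 159 CPM with DMSO, with an adjusted p of 0.11. It passed as lower with upper-quartile scaling (adjusted p = 0.031), with library totals alone (2.8e-05), after thinning to the smallest library (0.042) and without CIP replicate 3 (0.047) or DMSO replicate 3 (0.037). GTSE1 (chromosome 22, 46296870 to 46330810), a microtubule-associated protein of G2, had 43.5, 42.8 and 44.0 CPM with CIP and 34.7, 31.6 and 31.7 CPM with DMSO. It rose, with a log2 fold change of 0.41 ± 0.11 (adjusted p = 0.0012, edgeR), which was 0.18 with library totals alone and did not pass (adjusted p = 0.14). HMMR, a spindle-assembly protein, had 54.6 ± 0.549 against 51.0 ± 1.65 CPM and DLGAP5, which stabilises kinetochore fibres, 29.6 ± 2.08 against 32.9 ± 4.36 CPM, and neither passed. KIF18A, which dampens chromosome movements, was the member with the lowest level, at 6.69 ± 1.87 against 4.28 ± 0.711 CPM. Its adjusted p was 0.052, and it passed as higher after thinning to the smallest library (0.044), when CIP replicate 2 (0.013) or DMSO replicate 2 (0.0499) was left out.

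Cytokinesis genes had the lowest median of the roles, -0.86 over 6 genes, of which 4 fell, 0 rose and 2 missed the threshold. KIF20A (MKLP2, chromosome 5, 138179112 to 138187723), the kinesin that carries the passenger complex to the midzone, had 9.02, 10.5 and 10.4 CPM with CIP and 36.7, 37.3 and 30.8 CPM with DMSO, with a log2 fold change of -1.80 ± 0.15 (adjusted p = 9.8e-13, edgeR). PRC1 (chromosome 15, 90966040 to 90994535), which crosslinks midzone microtubules, had 112, 119.7 and 131 CPM with CIP and 294, 294 and 276 CPM with DMSO, with a log2 fold change of -1.25 ± 0.07 (adjusted p = 2.3e-17, edgeR). KIF23 (MKLP1, chromosome 15, 69414349 to 69448427), the motor of centralspindlin, had 26.7, 23.3 and 32.1 CPM with CIP and 67.3, 65.3 and 72.9 CPM with DMSO, with a log2 fold change of -1.32 ± 0.11 (adjusted p = 1.1e-12, edgeR). These 3 midzone genes did not overlap between the groups. RACGAP1, the partner of KIF23 in centralspindlin, had 23.0 ± 4.39 against 21.4 ± 1.06 CPM. ECT2, the exchange factor that RACGAP1 recruits to activate RhoA, had 23.8 ± 1.84 against 19.9 ± 1.50 CPM. Neither passed, with log2 fold changes of 0.11 ± 0.15 and 0.26 ± 0.14, and that of RACGAP1 was -0.12 with library totals alone. ANLN (anillin), a scaffold of the contractile ring, fell with 35.1 ± 5.12 against 48.7 ± 2.34 CPM. KIF20A shares 68 exon bases with CDC23 on the opposite strand, which had 121 to 242 counts per library.

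Both remaining members fell. TOP2A (chromosome 17, 40388525 to 40417896), the topoisomerase that untangles sister chromatids, had 1455, 1359 and 1502 CPM with CIP and 1826, 1784 and 1829 CPM with DMSO, with a log2 fold change of -0.33 ± 0.06 (adjusted p = 6.2e-06, edgeR). MKI67 (chromosome 10, 128096659 to 128126423), which encodes the proliferation marker Ki-67, had 216, 200.1 and 233 CPM with CIP and 345, 332 and 314 CPM with DMSO, with a log2 fold change of -0.61 ± 0.07 (adjusted p = 9.2e-10, edgeR). Neither gene overlapped between groups. Both falls were under 2-fold.

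Ratios of counts between partners of 1 complex within a library do not depend on scaling, and they were used to compare libraries, not the levels of both genes. The 16 ratios were chosen after the genes' values had been seen and are a description with no test. The groups did not overlap for 13 of the 16 ratios, where 75.5% of all single genes tested were separate. Ratios of other gene pairs were not tested, so this count cannot set partners of a complex apart from other pairs. BIRC5 over AURKB was 1.42, 1.69 and 1.42 with CIP and 0.267, 0.262 and 0.295 with DMSO, a log2 difference (± SE) of 2.45 ± 0.10. CCNB1 over CDK1 was 0.328, 0.353 and 0.382 with CIP and 0.819, 0.689 and 0.781 with DMSO, and CCNB2 over CDK1 was 1.04, 1.00 and 1.19 with CIP and 2.04, 2.15 and 1.85 with DMSO. Both B cyclin ratios were lower in all 3 CIP-labelled libraries than in any DMSO-labelled one, while CCNA2 over CDK1 overlapped between the groups. BUB1 over BUB3 was 0.0910, 0.101 and 0.0826 with CIP and 0.221, 0.214 and 0.246 with DMSO. TPX2 over AURKA was 1.55, 1.47 and 1.43 with CIP and 2.52, 2.58 and 2.66 with DMSO, a log2 difference of -0.80 ± 0.04. KIF23 over RACGAP1 was 1.16, 0.851 and 1.72 with CIP and 3.13, 2.92 and 3.60 with DMSO. SPC25 over NDC80 was 0.658, 0.639 and 0.620 with CIP and 1.16, 1.25 and 1.79 with DMSO. The ratios of BUB1B and CDC20 to BUB3 overlapped, with log2 differences of 0.02 ± 0.13 and -0.02 ± 0.07, and MAD2L1 over BUB3 was higher in every CIP-labelled library.

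**Figure D4:**
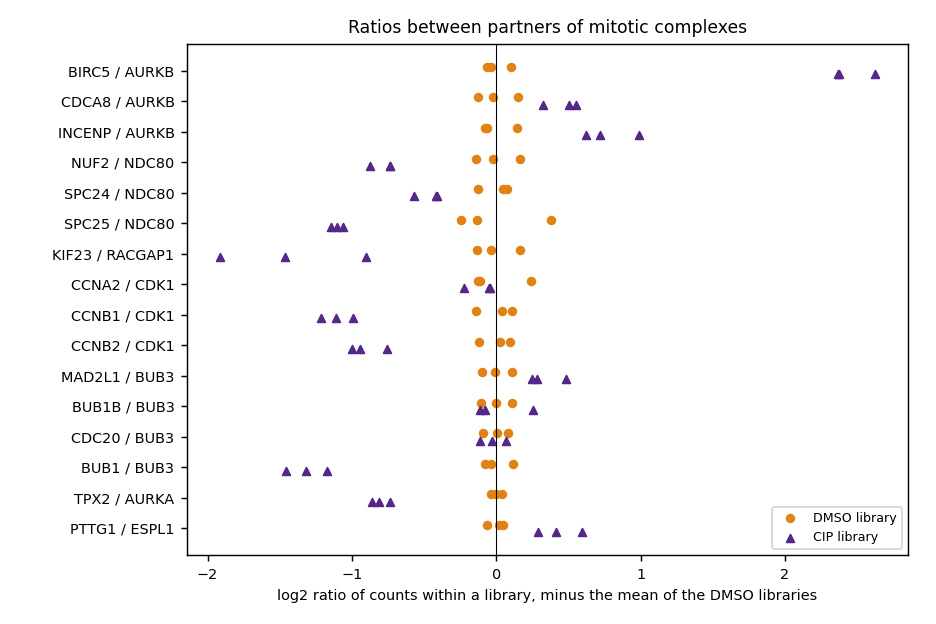
Log2 ratio of the counts of partner genes within each library, minus the mean of the DMSO-labelled libraries, for 16 ratios, with circles for DMSO-labelled and triangles for CIP-labelled libraries. BIRC5 over AURKB lies more than 2 units to the right with CIP, and BUB1 over BUB3, KIF23 over RACGAP1, CCNB1 over CDK1 and SPC25 over NDC80 lie to the left.

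Genes that act beside the 50 members were read from the same test, in which 38.2% of all genes tested were lower and 34.9% higher. Of 17 tested genes of the anaphase-promoting complex and its enzymes 9 rose and 3 fell (median log2 fold change 0.40). UBE2C, the ubiquitin-conjugating enzyme of that complex, rose with 116 ± 10.1 against 36.5 ± 2.00 CPM, with a log2 fold change of 1.66 ± 0.09 (adjusted p = 9.4e-18, edgeR). The subunit genes ANAPC13 and ANAPC15 rose as well, with log2 fold changes of 1.43 ± 0.12 and 0.86 ± 0.15. With library totals alone 6 of the 17 rose and 4 fell, and the median was 0.17. Of 12 other regulators of mitotic entry 6 rose and 1 fell (median 0.28, and 0.05 with library totals alone, where 4 rose and 3 fell). WEE1, the kinase that inhibits CDK1, rose with 65.8 ± 9.98 against 19.2 ± 1.15 CPM, with a log2 fold change of 1.77 ± 0.12 (adjusted p = 3.7e-15, edgeR). PKMYT1, the other kinase that inhibits CDK1, did not pass, with 62.8 ± 3.09 against 63.9 ± 5.74 CPM. MNAT1, a subunit of the CDK-activating kinase, rose with 25.2 ± 0.730 against 8.23 ± 1.07 CPM, and CKS1B, a small CDK-binding protein, fell with 163 ± 13.8 against 286 ± 3.84 CPM.

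Of 34 other kinetochore and checkpoint genes 14 fell and 10 rose (41.2% and 29.4%, median -0.10), shares near those of all genes tested (38.2% and 34.9%). CENPH, CENPI and MAD1L1, the last of which brings MAD2 to kinetochores, fell with log2 fold changes of -1.38 ± 0.10, -1.11 ± 0.15 and -1.19 ± 0.11. Of 28 other spindle and centrosome genes 13 fell and 5 rose (median -0.19). ASPM, a spindle pole protein, rose with 194 ± 5.22 against 80.1 ± 6.96 CPM, while the kinesins KIFC1 and KIF15 fell with log2 fold changes of -0.99 ± 0.13 and -0.97 ± 0.10. Of 13 genes of the DREAM and MuvB complexes 4 fell and 2 rose (median -0.21). TFDP2, a partner of E2F proteins, rose with 354 ± 2.36 against 66.3 ± 0.412 CPM, with a log2 fold change of 2.42 ± 0.07 (adjusted p = 9e-26, edgeR). E2F4, the E2F of DREAM, rose with 66.5 ± 1.75 against 35.9 ± 2.25 CPM, and RBBP4, a MuvB subunit, fell with 139 ± 8.39 against 189.8 ± 11.8 CPM. MYBL2, the gene of B-MYB, fell with 183 ± 5.36 against 235 ± 3.69 CPM, a log2 fold change of -0.36 ± 0.07. The largest change of this list was a fall of its relative MYBL1, which was low in all libraries (0.203 ± 0.176 against 7.05 ± 2.06 CPM).

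Of 39 G1/S and DNA replication genes 15 fell and 13 rose (38.5% and 33.3%), shares near those of all genes tested (38.2% and 34.9%), and the median was -0.03 as for all genes. CCNE1, the cyclin of the G1/S transition, rose with 24.1 ± 2.75 against 8.42 ± 2.30 CPM, and the replication genes GINS4 and MCM3 fell with log2 fold changes of -1.34 ± 0.17 and -1.01 ± 0.07. Of 18 condensin and cohesin genes 9 fell and 7 rose (median -0.12). The condensin gene SMC4 and the cohesin gene RAD21 fell, with log2 fold changes of -1.89 ± 0.06 and -1.54 ± 0.06, and the cohesin gene STAG1 rose by 1.12 ± 0.11. The difference in median between the members and these lists was not tested.

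**Figure D5:**
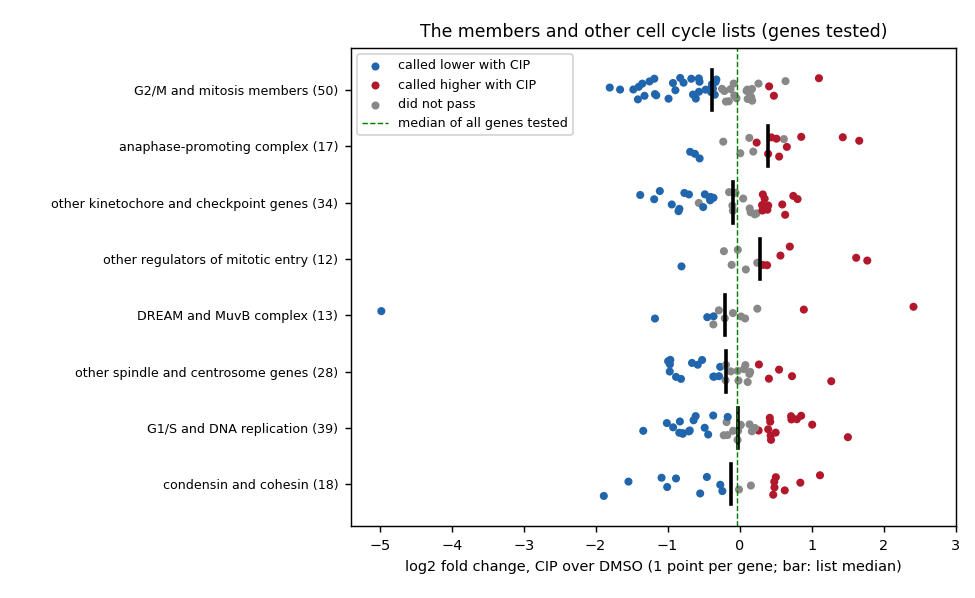
Log2 fold change, CIP over DMSO, of each tested gene (point) in the 50 members and in 7 other cell cycle lists, with the list median as a black bar and the median of all genes tested as a dashed line. The medians run from -0.38 for the members to 0.40 for the anaphase-promoting complex, and each list has genes called in both directions.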

How the data were processed

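RNA of 6 HL-60 libraries was sequenced after QuantSeq library preparation, per the labels' protocols. The files hold whole-number counts per gene symbol as deposited by the authors, 1 library per file, with no normalization. HTSeq, STAR, fastp and bcl2fastq (2.20.0.422) are named in the submitters' processing notes, with build GRCh38 and no setting. The sources used here do not give the annotation release, the strand setting or the treatment of reads with several matches: overlapping genes and near-identical copies (AURKAP1 of AURKA, with 9 to 27 counts per library) may share reads. Of the members 5 overlap a gene with at least 100 counts. Groups and replicate numbers come from the titles.

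The whole table was fitted with edgeR 4.0.16 (R 4.3.3): filterByExpr, TMM scaling, robust quasi-likelihood test, group alone, Benjamini-Hochberg adjustment over 12844 genes and a threshold of 0.05. SE is the log2 fold change over the square root of F. Because no label says that replicates were separate cultures, the p-values cover only the spread among these libraries, and that spread may be technical. Pairs of libraries within a group had a chi-square per gene of 3.82 to 7.66, above sampling noise. Alternatives used DESeq2 1.42.0 and limma 3.58.1, other scalings and filters, thinning, a replicate block and each library left out. Of the promoter sequences, 38 of 43 had their first 30 bases after the start in a GENCODE transcript of the same gene.

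The members and lists were chosen with earlier results of these data known. Values in every library are printed for up to 8 called members per direction by size of change (10 CPM or more in the group with the higher mean), up to 4 uncalled ones of at least 50 CPM and 13 fixed members, and from each other list up to 3 called genes by the same rule. BUB1 (by library), SPC24, CDC25A, PKMYT1, MYBL1, MYBL2 and the partners in the ratios were chosen after their values were seen. The result of 1 marker list is not reported here.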

Additional observations from a re-analysis of the deposited data

How the results depend on the processing

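Over 17 alternatives the members called higher numbered 2 to 5 and those called lower 28 to 38. Without 1 library in turn 3 to 5 were higher (5 without CIP replicate 2), 28 to 32 lower, and the median log2 fold change was -0.44 to -0.36. With library totals alone the median was -0.62, and PLK4 (-0.0562), BUB1B (-0.0686), BUB3 (-0.0899), CDC20 (-0.12), KIF11 (-0.0549), HMMR (-0.13) and RACGAP1 (-0.12) changed sign without passing; the whole table shifted down by that scaling. Without 1 library PLK4 ran from -0.00931 to 0.36, RACGAP1 from -0.0298 to 0.25 and NDC80 from -0.10 to 0.00534. In 813 of 850 values of single members the direction and the side of the threshold were as in the test reported. With the replicate block 3 members were higher and 30 lower, and all 33 calls were shared. Same-numbered libraries did not deviate together (correlations -0.03 to -0.01), and differently numbered ones gave -0.01 to 0.03. With 3 libraries per group this cannot show whether the numbers pair the samples. The member with the fewest counts, KIF18A, had 36 or more per library, which limits its precision.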

Other observations

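The CHR letters were also counted before the genes of the other lists, in the same window and as a description. A match was found for 14 of 28 other spindle and centrosome genes, 8 of 16 condensin and cohesin genes and 12 of 27 other kinetochore and checkpoint genes. In contrast 2 of 33 G1/S and DNA replication genes and 3 of 17 anaphase-promoting complex genes had one. CCAAT matches were found for 19 of 33 G1/S genes and 6 of 17 anaphase-promoting complex genes. Within the 50 members, a higher level went with a slightly lower log2 fold change (Spearman's rho -0.26 across genes, which share the same libraries and are not independent replicates). The level was the mean CPM over all libraries, so level and change come from the same counts and are not independent. The same correlation over all genes tested was not computed, so no conclusion is drawn from it.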
